A study of Mus musculus with 2 samples.

Results

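Autophagy and mitophagy genes were compared in lens mRNA between Msx2 conditional knockout mice (CKO, Le-Cre+/- Msx2fl/fl) and floxed mice without Cre (WT, Msx2fl/fl). The 42 genes were taken by name from the 21673 genes of the series table, and all 42 had a row there. Each genotype was represented by 1 library, from C57BL/6 mice at postnatal day 60. Both libraries carry the floxed Msx2 alleles, so they differ in the Le-Cre transgene as well as in Msx2. Their sex-linked RNA, given below, also differs as between females (CKO) and males (WT), so sex cannot be told apart from genotype. Le-Cre is active in the lens and in other tissues formed from the surface ectoderm of the eye, such as the cornea and conjunctiva. The sources used here do not say how many animals went into a library.

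Autophagy encloses cytoplasm in a double membrane, the autophagosome, and delivers it to lysosomes for degradation, and mitophagy is the same process directed at mitochondria. In the lens, epithelial cells turn into fibre cells that lose their nuclei, mitochondria and endoplasmic reticulum, which keeps the optical axis clear. BNIP3L, a mitophagy receptor, and phospholipases of the PLAAT family, which include PLA2G16, are known to act in that loss of organelles in animal lenses. FYCO1, an adaptor that links autophagosomes to microtubule motors, is a cataract gene in humans.

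Levels are FPKM, that is, fragments for each kilobase of gene length relative to the size of the library. The CKO library held 17165504 reads in genes and the WT library 20784737. Msx2 itself was at 0.0392 FPKM in CKO (3 reads) and 6.21 FPKM in WT (311 reads), 159-fold lower (53.8 to 774). The CKO library also held more photoreceptor, leukocyte and Xist RNA than the WT library, with values given beside the results. A gene counted as measured at a mean of 1 FPKM or more over both libraries, and 10757 genes were. Folds below are plain ratios of FPKM with an exact 95% interval from the reads, which covers counting error only. Log2 ratios are CKO over WT after adding 1 FPKM, and a gene passed the size rule at a 2-fold difference on that scale. With 1 library per genotype there was no replicate check and no test, so each difference describes these libraries. In whole lenses, fewer cells of a type and less RNA per cell cannot be told apart.

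Of the autophagy genes 41 were measured, and 39 of them lay within 2-fold. Sqstm1, the cargo receptor p62, was higher in CKO, and Pla2g16, the organelle-degrading phospholipase, was lower. Over all measured genes 8.76% passed the size rule, 5.83% higher and 2.93% lower in CKO, against 4.88% of the autophagy genes. The median log2 ratio of the autophagy genes was -0.04, and that of all measured genes was -0.02. Their middle 50% lay between -0.15 and 0.10, while that of all measured genes lay between -0.24 and 0.22. Every member had at least 231 reads over both libraries, so no member was near the counting floor.

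**Figure D1:**
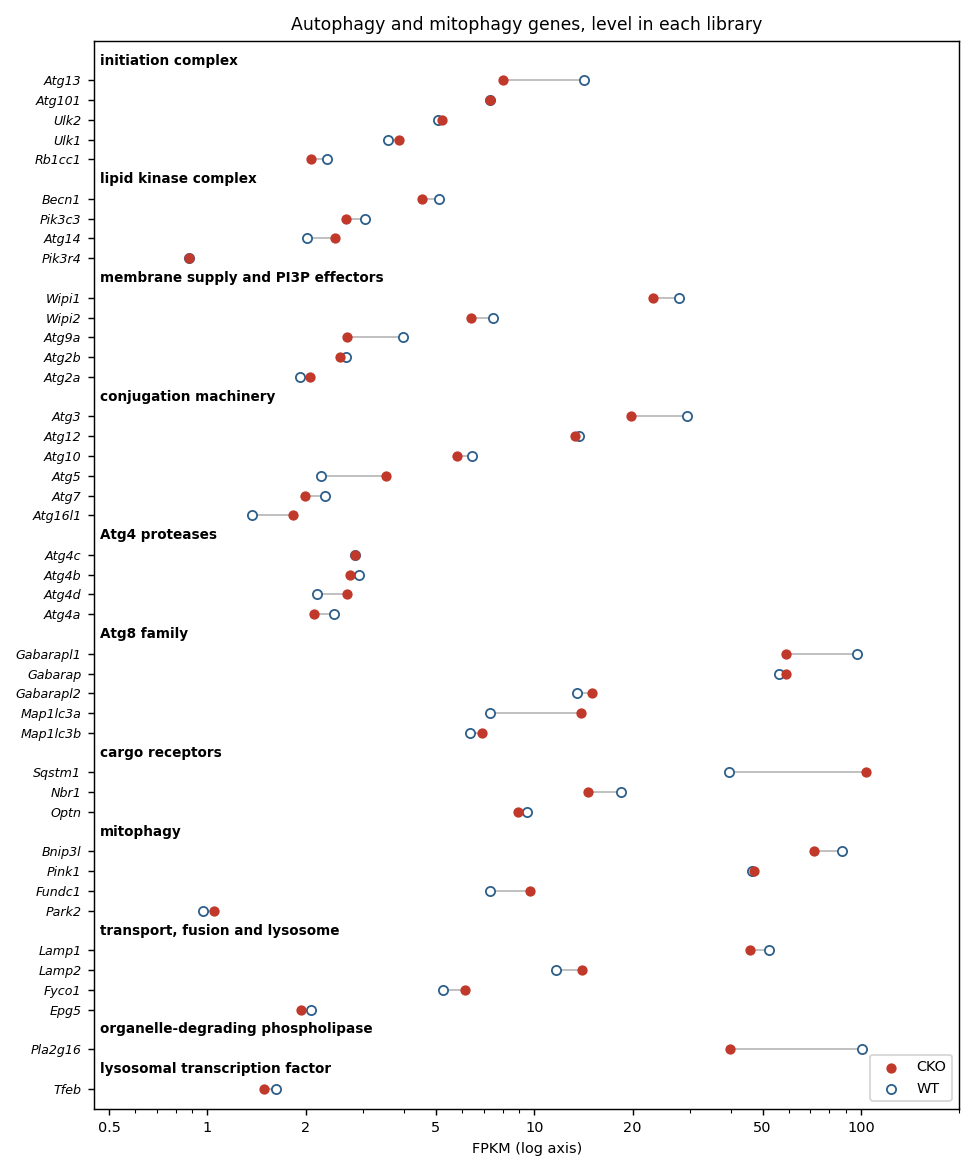
FPKM of the 42 autophagy and mitophagy genes in the CKO library (filled red) and the WT library (open blue), on a log axis, grouped by role. Sqstm1 lies to the right in CKO at 103 against 39.4 FPKM, and Pla2g16 to the left at 39.9 against 101 FPKM.

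Among the organelle-removal genes, Pla2g16 stood at 39.9 FPKM in CKO and 101 FPKM in WT. That is 2.53-fold lower (2.45 to 2.61), on 5958 reads in CKO and 9832 in WT. Its log2 ratio was -1.32. Of all measured genes 1.59% had a lower log2 ratio. The gene (ENSMUSG00000060675, named Plaat3 in RefSeq) lies at chr19:7557459-7588545 on the plus strand. Bnip3l, whose product marks mitochondria for engulfment, was at 71.9 FPKM in CKO and 87.4 FPKM in WT, a ratio of 0.822 (0.793 to 0.853). Its log2 ratio of -0.28 was inside the size rule. By FPKM, Pla2g16 was 0.555 times as abundant as Bnip3l in CKO and 1.15 times in WT. Fyco1 was at 6.16 FPKM in CKO and 5.25 FPKM in WT, a ratio of 1.17 (1.07 to 1.29). With the deposited scaling, then, Pla2g16 differed by more than 2-fold, while Bnip3l and Fyco1 lay on opposite sides of 1 and close to it. Under library totals alone, without the composition factor in the deposited values, Pla2g16 was inside the size rule at a log2 ratio of -0.44. On that scaling Bnip3l (0.60) and Fyco1 (0.95) were both above 0.

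The measured value of Bnip3l has a limit of its own. Bnip3l lies at chr14:66985239-67008877 on the minus strand, and the table also lists its processed pseudogene Bnip3l-ps. The coding sequence of Bnip3l and the pseudogene were identical at 99.4% of 657 aligned bases, with an identical run of 387 bases, so reads from the coding part could be divided between them or dropped. Bnip3l-ps had 86 reads in CKO and 45 in WT, while Bnip3l had 6481 in CKO and 5149 in WT. Fyco1 (chr9:123789510-123851899, minus strand) shares 402 exonic bases with AC165425.1, annotated on the same strand.

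Markers of lens fibres were lower in CKO beside Pla2g16. All 9 measured fibre markers lay below 0 with the deposited scaling, 7 of them past the size rule, and their median log2 ratio was -1.29. Their summed level was 4973 FPKM in CKO and 13556 FPKM in WT. Under library totals alone the median was -0.41, 2 of the 9 were past the size rule and 1 changed sign. Further genes known for organelle loss or fibre differentiation lay in both directions, with 3 lower, 2 higher and 7 within 2-fold of the 12 measured. Over all measured genes 2.93% were lower and 5.83% higher. Dnase2b, the nuclease that digests fibre DNA, was 2.65-fold lower (2.51 to 2.79). Hsf4, a heat shock factor of fibres, was 2.21-fold lower (2.09 to 2.33), and Tdrd7, an RNA granule component and human cataract gene, was 2.14-fold lower (2.10 to 2.18). Dnase2b and Hsf4 are also among the fibre markers. Under library totals alone these 3 genes stayed below 0, at -0.51, -0.25 and -0.20, but none passed the size rule. On that scaling 3 of the 12 were higher and 0 lower, beside 19.5% and 0.827% of all measured genes. With the deposited scaling the higher genes were Alox15 and Lmna. The lipoxygenase Alox15 was 14.0-fold higher (11 to 18.1). Lmna, which encodes lamin A and C, was 2.26-fold higher (2.01 to 2.53). The part of the lower fibre marker level in the value of Pla2g16 was not tested.

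Sqstm1 differed in the other direction. Its product p62 binds ubiquitinated cargo and the Atg8 proteins of the autophagosome, and is itself degraded with the cargo. The gene (ENSMUSG00000015837, chr11:50199366-50210827, minus strand) was at 103 FPKM in CKO and 39.4 FPKM in WT. It was 2.62-fold higher (2.5 to 2.76), on 8100 reads in CKO and 2017 in WT. Its log2 ratio was 1.37. Of all measured genes 3.94% had a higher log2 ratio. The other cargo receptors were within 2-fold. Nbr1, which binds ubiquitin in a similar way, was at 14.6 FPKM in CKO and 18.4 FPKM in WT. Optn, which encodes optineurin, was at 8.94 FPKM in CKO and 9.53 FPKM in WT. Sqstm1 was thus 7.07 times as abundant as Nbr1 in CKO and 2.14 times in WT. On the opposite strand Mrnip shares 580 exonic bases with Sqstm1, and the sources used here do not say whether counting used strand. Mrnip, listed under an older name, had 42 reads in CKO and 26 in WT, far fewer than Sqstm1.

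The promoters of the genes past the size rule are shown because Sqstm1 and Pla2g16 were the members that passed it, in opposite directions. Each window runs from 250 bases before the RefSeq start to 50 after it, on GRCm38.p6, 5′ to 3′ on the gene's strand. Capitals mark matches, on either strand, to the motifs searched. In Sqstm1 these are 3 copies of the Sp1 box GGGCGG, and in Pla2g16 they are the AP-1 site TGANTCA and 1 Sp1 box.
Sqstm1 (chr11:50210771-50211070, minus strand): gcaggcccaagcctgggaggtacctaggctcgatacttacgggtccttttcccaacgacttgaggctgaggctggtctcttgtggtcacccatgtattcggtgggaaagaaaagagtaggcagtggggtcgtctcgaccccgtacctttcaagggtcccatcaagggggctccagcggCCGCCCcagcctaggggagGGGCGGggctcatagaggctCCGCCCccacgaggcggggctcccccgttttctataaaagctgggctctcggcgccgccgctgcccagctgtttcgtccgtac
Pla2g16 (chr19:7557209-7557508, plus strand): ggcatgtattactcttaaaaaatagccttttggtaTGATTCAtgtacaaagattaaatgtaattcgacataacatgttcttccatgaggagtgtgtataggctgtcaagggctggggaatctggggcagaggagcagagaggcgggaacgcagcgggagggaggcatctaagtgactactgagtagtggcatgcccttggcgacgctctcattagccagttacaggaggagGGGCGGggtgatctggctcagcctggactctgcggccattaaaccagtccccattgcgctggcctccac
Neither window held the E-box core CACGTG, the lysosomal gene element, which is that core with GT before it and AC after it, the NRF2 core TGACNNNGC, the heat shock pair GAANNTTC or the homeobox core TAATTG. Of 32851 RefSeq promoter windows, 35.7% held the Sp1 box, 7.81% the AP-1 site, 7.15% the E-box core and 0.326% the lysosomal gene element. The remaining shares were 12.4% for the NRF2 core, 7.86% for the heat shock pair and 8.0% for the homeobox core. Among 33 members with a window, 21 held the Sp1 box and 5 the E-box core (Atg3, Atg5, Atg7, Atg14 and Lamp1). The Atg7 window lay 27999 bases from the gene start in the series table, that of Atg4b 3405 and that of Wipi2 1886. The median content of G and C was 59.3% in the members' windows and 52.7% in all windows. The Sp1 box holds only G and C, and its share was not compared among windows of like content. The NRF2 core was in 3 of the 33 windows (Atg13, Ulk2 and Map1lc3b), the homeobox core in 2 (Gabarap and Nbr1), and the AP-1 site (Pla2g16) and the heat shock pair (Optn) in 1 each. A match describes letters in the window and is not evidence of binding.

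**Figure D2:**
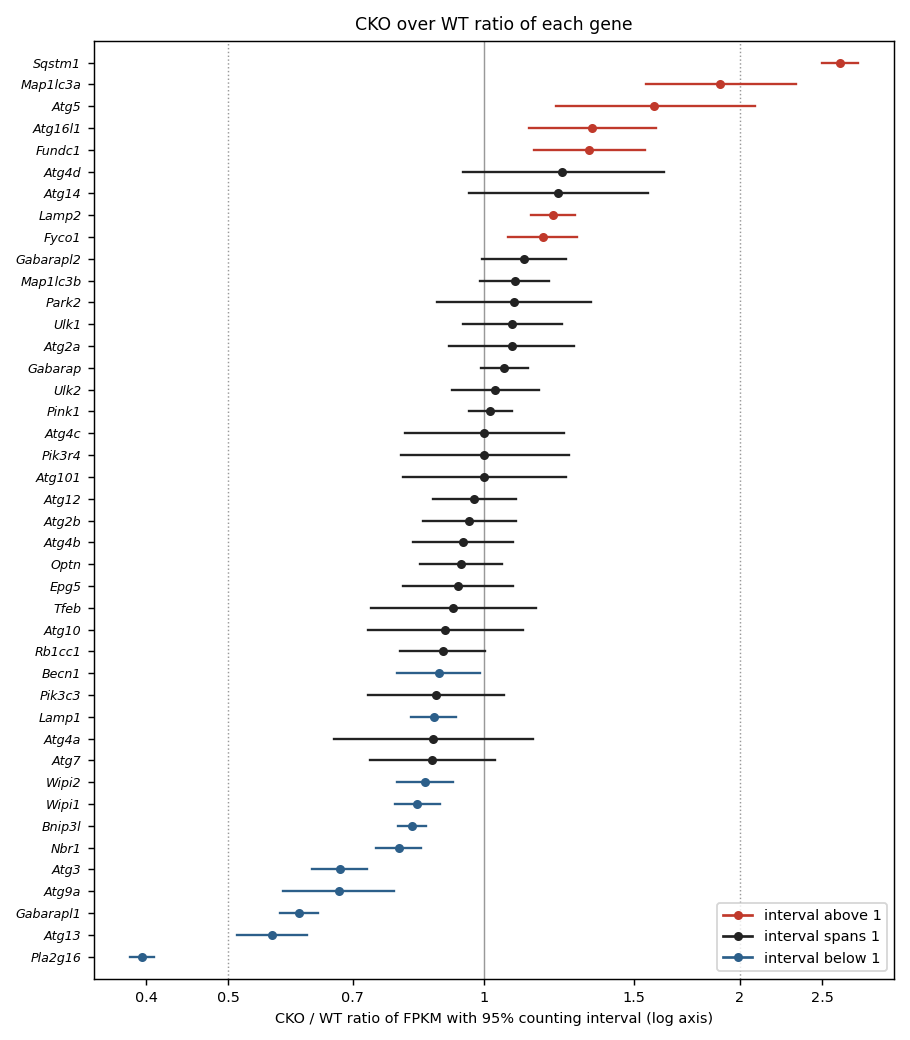
Ratio of FPKM, CKO over WT, of each gene on a log axis, with exact 95% counting intervals; dotted lines mark 2-fold. Sqstm1 at 2.62 and Pla2g16 at 0.396 lie outside the dotted lines, and the intervals of 24 of the 42 genes span 1.

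Initiation of an autophagosome starts with the ULK kinase complex, and its genes were at low to moderate levels. The kinase genes Ulk1 and Ulk2 were at 3.86 and 5.24 FPKM in CKO, against 3.57 and 5.08 FPKM in WT. Rb1cc1, the scaffold FIP200, was at 2.08 FPKM in CKO and 2.33 FPKM in WT. Atg101 was at 7.34 FPKM in CKO and 7.35 FPKM in WT. The complex member that stood apart was Atg13, the adaptor that joins the kinase to its partners. It was at 8.01 FPKM in CKO and 14.2 FPKM in WT, a ratio of 0.563 (0.512 to 0.618) and a log2 ratio of -0.76, inside the size rule. Atg13 was 2.08 times as abundant as Ulk1 in CKO and 3.99 times in WT. Its log2 ratio was 0.06 under library totals alone.

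The lipid kinase complex makes the phosphoinositide that marks the growing membrane. None of its genes passed the size rule. Becn1, the Beclin 1 scaffold, was at 4.53 FPKM in CKO and 5.13 FPKM in WT. Pik3c3, the catalytic subunit, was at 2.66 FPKM in CKO and 3.04 FPKM in WT. Atg14, the targeting subunit, was at 2.46 FPKM in CKO and 2.01 FPKM in WT. Pik3r4, the regulatory subunit, stood at 0.882 FPKM in CKO and 0.881 FPKM in WT and was the member below the level of a measured gene.

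Proteins that read this lipid or supply membrane were also within 2-fold. Wipi1 and Wipi2, which bind the lipid, were at 23.1 and 6.39 FPKM in CKO, against 27.6 and 7.5 FPKM in WT. The proportion of Wipi1 to Wipi2 was 3.61 in CKO and 3.69 in WT, so both genes stood in nearly the same ratio to each other. Atg9a, a membrane protein of the vesicles that seed autophagosomes, was at 2.68 FPKM in CKO and 3.98 FPKM in WT, a ratio of 0.674 (0.580 to 0.783). It shares 1832 of its 5762 exonic bases with Gm29253, annotated on the same strand and without a row in the series table. The lipid-transfer genes Atg2a and Atg2b were at 2.06 and 2.55 FPKM in CKO, against 1.92 and 2.65 FPKM in WT.

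The conjugation enzymes attach Atg8 proteins to membrane lipid. Atg3, the E2-like enzyme of that reaction, was the most abundant of them, at 19.8 FPKM in CKO and 29.3 FPKM in WT, a ratio of 0.676 (0.628 to 0.728). Atg5 was at 3.53 FPKM in CKO and 2.23 FPKM in WT, a ratio of 1.58 (1.21 to 2.08) on 194 reads in CKO and 80 in WT. Atg16l1, its partner, was at 1.83 FPKM in CKO and 1.37 FPKM in WT. These last genes act in the same complex as Atg12, which was at 13.3 FPKM in CKO and 13.7 FPKM in WT. The E1-like enzyme gene Atg7 was at 1.98 FPKM in CKO and 2.28 FPKM in WT, and the E2-like gene Atg10 was at 5.82 FPKM in CKO and 6.47 FPKM in WT. None of the 6 passed the size rule.

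Atg8 proteins coat the autophagosome and bind cargo receptors, and mammals have an LC3 branch and a GABARAP branch. In both libraries the GABARAP branch made up most of the family's summed FPKM, 86.5% in CKO and 92.4% in WT. Gabarapl1 was at 59.0 FPKM in CKO and 97.4 FPKM in WT, a ratio of 0.606 (0.575 to 0.638) and a log2 ratio of -0.71, which was 0.16 under library totals alone. Map1lc3a was at 13.9 FPKM in CKO and 7.32 FPKM in WT, a ratio of 1.90 (1.55 to 2.33) and a log2 ratio of 0.84, on 383 reads in CKO and 132 in WT. The other 3 were closer to equal. Gabarap was at 59.2 FPKM in CKO and 56.0 FPKM in WT, Gabarapl2 at 15.1 FPKM in CKO and 13.5 FPKM in WT, and Map1lc3b at 6.93 FPKM in CKO and 6.38 FPKM in WT. Gabarapl1 therefore held 38.3% of the family's FPKM in CKO and 53.9% in WT, and Map1lc3a 9.01% in CKO and 4.05% in WT. These shares within a library do not depend on how the libraries were scaled. Within the LC3 branch, Map1lc3a was by FPKM 2.0 times as abundant as Map1lc3b in CKO and 1.15 times in WT. In reads the order was reversed, with 1217 for Map1lc3b in CKO and 732 in WT. The gene length used was 7517 bases for Map1lc3b and 1181 for Map1lc3a. Comparisons between family members, and the family shares, therefore rest on these lengths.

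**Figure D3:**
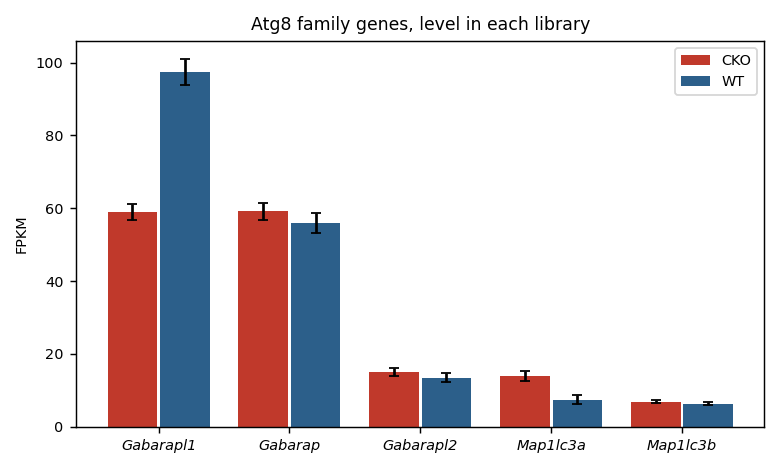
FPKM of the 5 Atg8 family genes in CKO (red, left bar) and WT (blue, right bar), with exact Poisson 95% intervals from the reads, for counting error only. Gabarapl1 is lower in CKO (59.0 against 97.4 FPKM) and Map1lc3a higher (13.9 against 7.32 FPKM); under library totals alone the log2 ratio of Gabarapl1 turns to 0.16.

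The ends of 4 of the coding sequences are shown because this is the part that ATG4 proteases process, and because related family members could share reads. Each run is the last 36 bases up to the stop codon, from GENCODE M21 transcripts on GRCm38, with the last in-frame glycine codon in capitals.
Map1lc3a: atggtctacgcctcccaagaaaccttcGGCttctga
Gabarap: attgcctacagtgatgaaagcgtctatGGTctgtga
Gabarapl1: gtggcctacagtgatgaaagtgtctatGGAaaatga
Gabarapl2: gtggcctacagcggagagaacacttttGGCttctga
ATG4 cuts after that glycine, which is codon 120 in Map1lc3a and codon 116 in the GABARAP genes. In each of these 4 genes 1 codon follows it before the stop. Over their whole coding sequences the closest pairs were Map1lc3a with Map1lc3b, 77.8% identical, and Gabarap with Gabarapl1, 74.9%, with no identical run longer than 17 bases. The Gabarapl1 exons share 570 bases with 1700101I11Rik on the opposite strand, which had 88 reads in CKO and 138 in WT.

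The ATG4 protease genes were at low levels of similar size, and none passed the size rule. Atg4a, Atg4b, Atg4c and Atg4d were at 2.12, 2.74, 2.83 and 2.68 FPKM in CKO, against 2.44, 2.90, 2.83 and 2.17 FPKM in WT. Their sum was 10.4 FPKM in CKO and 10.3 FPKM in WT, and the counting interval of each ratio spanned 1. The ratio was 0.871 (0.666 to 1.14) for Atg4a and 1.24 (0.943 to 1.63) for Atg4d. Intervals of this width do not show that the levels were equal.

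Mitophagy genes other than Bnip3l were within 2-fold as well. Pink1, the kinase that accumulates on damaged mitochondria, was at 47.2 FPKM in CKO and 46.4 FPKM in WT, a ratio of 1.02 (0.959 to 1.08). Park2, the ubiquitin ligase parkin that PINK1 activates, was far lower, at 1.05 FPKM in CKO and 0.966 FPKM in WT. By FPKM, Pink1 was 45.1 times as abundant as Park2 in CKO and 48.0 times in WT. Fundc1, a receptor of the mitochondrial outer membrane, was at 9.73 FPKM in CKO and 7.32 FPKM in WT, a ratio of 1.33 (1.14 to 1.55). Bnip3l was 7.39 times as abundant as Fundc1 in CKO and 11.9 times in WT.

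Late steps were represented by Lamp1 and Lamp2, lysosomal membrane glycoproteins, and Epg5, a tether that helps autophagosomes fuse with late endosomes and lysosomes. Lamp1 was at 45.7 FPKM in CKO and 52.5 FPKM in WT. Lamp2 was at 14.0 FPKM in CKO and 11.7 FPKM in WT, a ratio of 1.20 (1.14 to 1.28). Lamp1 was therefore 3.26 times as abundant as Lamp2 in CKO and 4.50 times in WT. Epg5 was at 1.93 FPKM in CKO and 2.07 FPKM in WT. Tfeb, a transcription factor that drives lysosomal and autophagy genes, was at 1.49 FPKM in CKO and 1.62 FPKM in WT.

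Atg4a, Fundc1 and Lamp2 lie on the X chromosome, and the libraries differed in sex-linked RNA. Xist, which silences an X chromosome in females, was at 38.8 FPKM in CKO and 0.128 FPKM in WT, and reads of the Y-linked Eif2s3y numbered 0 in CKO, against 819 in WT. By these RNAs the CKO library was female and the WT library wholly or mostly male. Sex therefore cannot be told apart from genotype in any ratio given here. The median log2 ratio was 0.25 for the X-linked members and 0.01 for all 334 measured X-linked genes.

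At a 1.5-fold rule, added after the data were seen, 5 autophagy genes passed: Sqstm1 and Map1lc3a higher, and Pla2g16, Atg13 and Gabarapl1 lower. This is 12.2% of the measured members, against 18.2% of all measured genes (10.1% higher and 8.09% lower). The counting interval of the ratio lay above 1 for 7 measured members and below 1 for 11, together 43.9%. Over all measured genes 25.9% lay above 1 and 29.6% below, together 55.6%. By all of these counts the autophagy genes were no more often different between the libraries than measured genes in general.

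How the libraries are scaled moved every log2 ratio. Scaling to library totals alone raised the median of all measured genes by 0.70, and scaling to totals without the 16 crystallin genes raised it by 0.19. Under library totals 22 of the 23 members with a negative log2 ratio changed sign, Bnip3l (0.60), Gabarapl1 (0.16) and Atg13 (0.06) among them. Pla2g16 was the exception, at -0.44, and thus came inside the size rule. Under that scaling 5 members were higher by the size rule (Sqstm1, Map1lc3a, Atg5, Fundc1 and Lamp2) and none lower, against 19.5% and 0.827% of all measured genes. With crystallins left out, 2 were higher (Sqstm1 and Map1lc3a) and Pla2g16 was lower, against 7.10% and 1.95%. Set against the median of all measured genes, Pla2g16 was at -1.30 with the deposited values, -1.25 without crystallins and -1.12 under library totals. On the same footing Sqstm1 was at 1.39, 1.44 and 1.56, Gabarapl1 at -0.70, -0.65 and -0.51, and Atg13 at -0.74, -0.71 and -0.62. Each scaling multiplies all ratios by 1 common factor, so these relative positions are nearly fixed by construction and are no check of the genes.

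**Figure D4:**
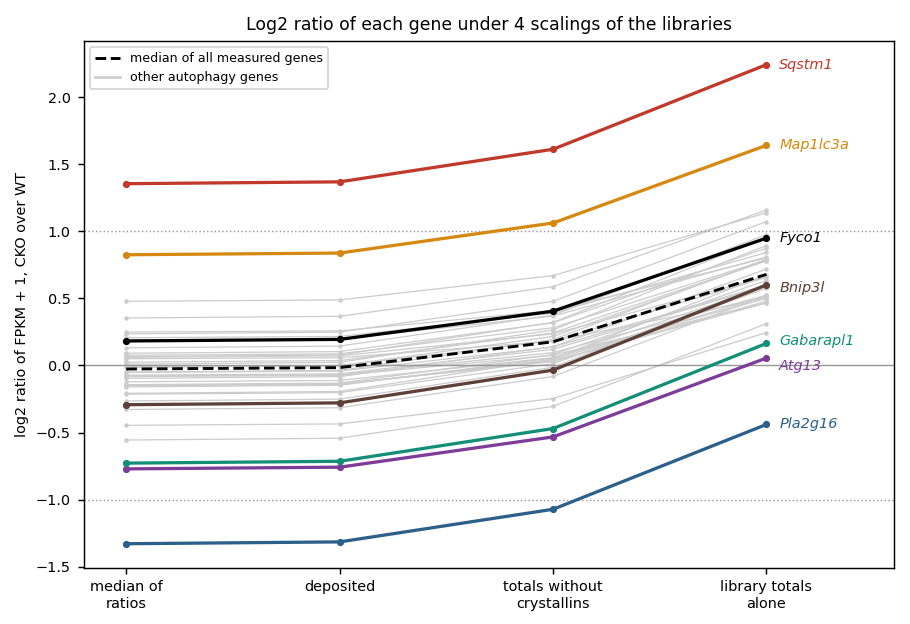
Log2 ratio of FPKM + 1, CKO over WT, of each measured autophagy gene under 4 scalings, with the median of all 10757 measured genes dashed and 2-fold dotted. Lines rise together towards library totals alone, where Pla2g16 (-0.44) is the member left below 0.

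Further genes of the pathway, from lists chosen with earlier results of these data known, were mostly within 2-fold too. None of 10 further initiation genes, 18 further cargo receptors and adaptors, 22 genes of mitochondrial dynamics and quality control, 24 fusion and transport genes or 38 regulators of the mTORC1, AMPK and TFEB family passed the size rule. Their median log2 ratios were -0.01, 0.00, -0.03, 0.05 and -0.01, beside -0.02 for all measured genes. Over all measured genes 8.76% passed the size rule. The counting interval of the ratio excluded 1 for 60%, 61.1%, 36.4%, 41.7% and 65.8% of these lists, in that order. Over all measured genes this share was 55.6%. Bnip3, the closest relative of Bnip3l and named for that reason, was at 23.4 FPKM in CKO and 18.7 FPKM in WT. Of 38 lysosomal hydrolases and membrane proteins 1 was higher by the size rule and none lower, beside 8.76% of all measured genes past it. The higher gene was the protease gene Ctsh, at 3.38 FPKM in CKO and 1.14 FPKM in WT, 2.97-fold (2.32 to 3.85). Glb1 had the lowest log2 ratio of this list, -0.92, inside the size rule. As a plain ratio it was 2.25-fold lower (1.81 to 2.80), at 2.52 FPKM in CKO and 5.66 FPKM in WT. The genes higher by the size rule under library totals alone numbered 1, 5, 3, 4 and 7 in those first lists, in the same order, and 7 among the lysosomal genes, beside 19.5% of all measured genes.

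The vacuolar ATPase, the proton pump that acidifies lysosomes, had the list median farthest from 0 among these pathway lists. Of 19 measured subunit and accessory genes 15 had a log2 ratio above 0, and the median was 0.28. By the size rule 2 were higher, 10.5% of the list, and none lower, beside 5.83% higher and 2.93% lower over all measured genes. Scaled to library totals alone, 12 of these 19 genes passed upwards and the median was 1.11, beside 19.5% higher and a median of 0.68 over all measured genes. Atp6v0d2 had 178 reads in the CKO library and 0 in the WT library. It was thus measured through the CKO library alone, at 2.80 FPKM, so its place among the higher genes was fixed by the filter. Its CKO level was 38.8 times a floor of 3 reads set for the WT library. The exact 95% interval of the ratio to the observed 0 reads began at 31.2. Atp6v1g2 was at 4.16 FPKM in CKO and 1.1 FPKM in WT, 3.80-fold higher (2.73 to 5.40). The other 17 lay within 2-fold.

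RNA of cells outside the lens differed between the same libraries. All 8 photoreceptor markers were higher in CKO, with a summed level of 695 FPKM in CKO and 16.8 FPKM in WT. All 5 measured leukocyte markers of 8 were higher too, and the 8 summed to 38.9 FPKM in CKO and 6.63 FPKM in WT. Of these, Ctss and Cd68 were at 0.675 and 0.417 FPKM in WT. They counted as measured through the CKO library alone, so their direction was fixed by the filter. The same holds for the photoreceptor markers Rcvrn, Nrl, Gngt1 and Sag, at 0.945, 0.837, 0.391 and 0.883 FPKM in WT. Ptprc, the pan-leukocyte gene, was near 0 in both, at 0.0304 FPKM in CKO and 0.0250 FPKM in WT. Erythroid markers, with 0 of 5 measured, summed to 2.88 FPKM in CKO (58 reads) and 0.386 FPKM in WT (8 reads). Muscle markers, with 1 of 4 measured, summed to 1.42 FPKM in CKO (62 reads) and 3.13 FPKM in WT (68 reads). The measured muscle marker was Pvalb, on 18 reads in CKO and 40 in WT. Both sums are near the floor and were not read as a difference in these cells. Of 6 lens epithelial markers 2 were lower (Gja1 and Npnt) and 4 lay inside the size rule, with a sum of 105 FPKM in CKO and 210 FPKM in WT. With the deposited scaling 5 of the 6 lay below 0 and Krt15 above it. As a plain ratio Krt15 was 2.25-fold higher (1.35 to 3.92), on 69 reads in CKO and 20 in WT. At 0.741 FPKM in WT, Krt15 too was measured through the CKO library alone. The median log2 ratio of the 6 was -0.80 with the deposited scaling and 0.01 under library totals alone. Under library totals 0 were lower, 1 was higher and 2 of the 6 stayed below 0. The part of these cells in the values of Sqstm1, Map1lc3a and the vacuolar ATPase genes was not tested.

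**Figure D5:**
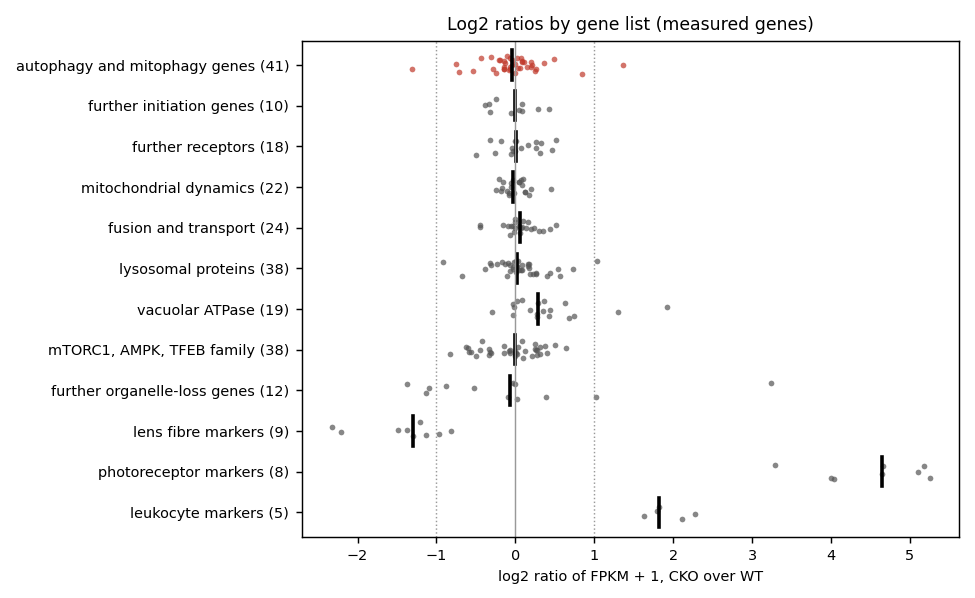
Log2 ratio of FPKM + 1, CKO over WT, of each measured gene by list, with the number of genes in brackets, list medians as black bars and 2-fold dotted. Autophagy genes (red) centre on -0.04, fibre markers on -1.29, leukocyte markers on 1.82 and photoreceptor markers on 4.65. Some leukocyte and photoreceptor markers were measured through the CKO library alone.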

How the data were processed

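Lens mRNA was sequenced in 2 libraries, 1 per genotype. Per the submitters' processing notes, STAR 2.5.1b, HTSeq 0.6.0 and DESeq2 1.10.1 were used, without a role for each. The build the authors aligned to was not given in the sources used here. Values in the deposited table are FPKM, a unit inferred from the values: multiplied by gene length, 100% were whole multiples of 1 step within 0.001 of a read. Reads were recovered from that step. Effective library sizes were 1.36 (CKO) and 0.735 (WT) times the recovered totals, so the deposited FPKM include a composition factor. All 42 members were found in GENCODE M21 (GRCm38), 33 with identical start and end, and coordinates are those of the table.

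Ratios, exact conditional binomial intervals and scalings were computed in Python 3.11.15 with scipy 1.17.1 and pandas 2.3.3, and tested on simulated data. Members and lists were chosen with earlier results of these data known. All members were named, and from the wider lists the genes past the size rule, at most 4 in each direction. Bnip3, Glb1, Krt15 and Ptprc were named in addition. Exact intervals cover counting error only. No test across genes was made. The end of 1 Atg8 family coding sequence is not reported here.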

Additional observations from a re-analysis of the deposited data

How the results depend on the processing

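No paired analysis was possible because each genotype has 1 library, and for the same reason no replicate could be left out. With a pseudocount of 0.1, with no filter, with a minimum of 10 reads and with median-of-ratios scaling, 1 autophagy gene was higher and 1 lower by the size rule, as in the report. The share of all genes past the rule did change. It was 12.7%, 5.41%, 6.37% and 8.8% under these settings, in that order, against 8.76% in the report. Under library totals alone 5 members were higher and 0 lower, beside 20.3% of all measured genes past the rule, with a median log2 ratio of 0.66. Under totals without crystallins 2 were higher and 1 lower, beside 9.05% of all measured genes, with a median of 0.14. At 1.5-fold, an alternative chosen after the data were seen, 2 were higher and 3 lower, beside 18.2% of all measured genes. No member past the size rule changed sign under these settings. Under library totals 40 of the 41 log2 ratios were positive, and without crystallins 33. These scalings shift all ratios by one factor, which accounts for the common direction. All members had 231 reads or more over both libraries, but depth still limited some ratios. Atg5 had 80 reads in WT, with an interval of 1.21 to 2.08, and Atg4a had 99, with an interval of 0.666 to 1.14.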
